A study of Mus musculus with 11 samples.

Results

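Markers of macrophages, monocytes and dendritic cells were followed across 4 groups of mouse colonic epithelial preparations. The set holds 10 genes, Cd14, Csf1r, Adgre1, Itgax, Cx3cr1, Lyz2, C1qa, C1qb, Cd68 and Ccr2, taken by symbol from the 54513 genes of the count table, and all 10 were among the 19267 genes that passed the filter on low counts. The mice were wild type (WT) or lacked 2 miR-181 clusters, miR-181a1-b1 along with miR-181a2-b2 (double knockout, DKO). The labels do not say in which cells the clusters were deleted. The groups were WT at baseline (2 libraries), DKO at baseline (3), WT after dextran sulfate sodium (DSS, 3) and DKO after DSS (3). DSS, a chemical that injures the colonic epithelium, was given at 2% for 7 days and followed by 2 days of recovery. All libraries came from epithelial cells of the colon enriched over 40% Percoll, a density step, so the fraction was not a sort of phagocytes. Strain, age and sex are not given in the labels, which also do not tie a library to a single animal. The p-values below therefore measure the spread between these libraries only.

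Mononuclear phagocytes of the colon lie mainly in the lamina propria beneath the epithelium. Blood monocytes that carry Ccr2 and Ly6C enter the tissue and mature into macrophages that engulf microbes and dying cells, and injury brings in more of them. Dendritic cells carry antigen to lymph nodes, and several surface markers, Itgax and Cx3cr1 among them, are shared by macrophages and dendritic cells. None of the 10 genes is strictly limited to these cells, since Cd14 can be made by intestinal epithelium and Cd68 encodes a lysosomal membrane protein.

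Libraries held 41631951 to 52761900 counts, and the 10 markers together made up 0.00497% to 0.0140% of them. Epithelial marker genes summed to 10930 to 16790 CPM (counts scaled to library size), against 51.9 to 138 CPM for the 10 markers. The ribosomal RNA gene Rn18s-rs5 took 23.1% and 8.46% of counts in baseline DKO replicates 1 and 2 and 0.128% to 1.59% elsewhere. Baseline libraries had 6.75 to 14.5 CPM of Xist and 42.6 to 54.9 CPM of the Y-linked Ddx3y, and DSS libraries had 633 to 906 CPM and 0.162 to 0.895 CPM, so that sex and DSS cannot be told apart. In bulk RNA, fewer cells of a type and less RNA per cell cannot be told apart either.

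Sequence upstream of the start sites is shown first. The windows of Cd14 and Csf1r are not reported here, and no entry was used for Adgre1 and C1qa. RefSeq entries were used for 6 of the 10 (C1qb, Itgax, Cx3cr1, Ccr2, Lyz2 and Cd68). The 250 bases before the start are shown 5′ to 3′ on the strand of the gene for 4 of them and for Lyz1, the neighbouring paralog of Lyz2, because these windows hold the motifs discussed and because reads of Lyz1 and Lyz2 can be confused. Capitals mark GGAAGT or its reverse complement ACTTCC, a core bound by ETS factors such as the myeloid factor PU.1 (Spi1), and TGAGTCA or its reverse complement TGACTCA, the site of AP-1. The windows, in GRCm38.p6, are chr10:117282273-117282522 (Lyz2), chr10:117292869-117293118 (Lyz1), chr4:136886201-136886450 (C1qb), chr7:128129300-128129549 (Itgax) and chr11:69666171-69666420 (Cd68). Itgax lies on the plus strand and the other 4 on the minus strand.
Lyz2: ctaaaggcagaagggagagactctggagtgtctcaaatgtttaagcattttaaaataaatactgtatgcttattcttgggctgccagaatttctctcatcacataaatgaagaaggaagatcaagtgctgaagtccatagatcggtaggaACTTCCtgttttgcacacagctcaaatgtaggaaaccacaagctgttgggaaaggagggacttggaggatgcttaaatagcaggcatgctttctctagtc
Lyz1: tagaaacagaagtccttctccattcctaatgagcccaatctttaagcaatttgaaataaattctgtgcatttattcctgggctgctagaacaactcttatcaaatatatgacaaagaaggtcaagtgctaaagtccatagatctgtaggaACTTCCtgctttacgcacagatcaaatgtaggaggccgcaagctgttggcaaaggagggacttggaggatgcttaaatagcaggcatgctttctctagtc
C1qb: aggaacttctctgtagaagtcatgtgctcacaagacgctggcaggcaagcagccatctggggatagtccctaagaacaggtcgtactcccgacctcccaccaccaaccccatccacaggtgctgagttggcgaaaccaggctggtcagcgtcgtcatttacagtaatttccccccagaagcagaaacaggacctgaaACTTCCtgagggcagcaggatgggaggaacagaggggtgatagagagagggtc
Itgax: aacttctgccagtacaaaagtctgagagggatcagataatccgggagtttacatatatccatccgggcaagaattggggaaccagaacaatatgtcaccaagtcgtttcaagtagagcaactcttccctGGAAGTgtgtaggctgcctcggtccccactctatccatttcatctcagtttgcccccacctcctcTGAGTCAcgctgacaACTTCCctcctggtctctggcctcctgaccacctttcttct
Cd68: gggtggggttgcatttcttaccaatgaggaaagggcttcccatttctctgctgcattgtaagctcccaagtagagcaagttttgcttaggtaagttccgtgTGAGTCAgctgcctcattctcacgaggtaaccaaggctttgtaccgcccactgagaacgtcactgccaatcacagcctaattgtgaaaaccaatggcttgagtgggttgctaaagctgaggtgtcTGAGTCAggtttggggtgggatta

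The ETS core was found in 3 of the 6 windows, beginning 53 bases before the start in C1qb, 100 in Lyz2, and 121 and 41 in Itgax. It was present in 19.7% of all 32851 promoter windows of the same length. The AP-1 motif was found in 2 of the 6, at 56 bases in Itgax and at 149 and 24 in Cd68, against 4.46% of all windows. The motifs were chosen after the sequences had been read, and a match is a description of letters only. Neither motif was in the windows of Cx3cr1 or Ccr2. The Lyz2 and Lyz1 windows were identical at 92 of the last 100 bases and at 60.8% of all 250 without gaps, and both carry the ETS core 100 bases before the start.

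In the GRCm38 annotation, Cd14 lies at 18:36725067-36726798 (minus strand) and Csf1r at 18:61100598-61132149 (plus). Adgre1 lies at 17:57358691-57483527 (plus), Itgax at 7:128129547-128150657 (plus) and Cd68 at 11:69664213-69666153 (minus). Chromosome 9 carries Cx3cr1 at 119901616 to 120069879 (minus) and Ccr2 at 124101950 to 124113557 (plus). C1qb and C1qa are neighbours on the minus strand of chromosome 4, at 136880129 to 136886187 and 136895917 to 136898803, with C1qc between them. Lyz2 lies at 10:117277331-117282321 (minus). Csf1r shares 873 of its 5774 exonic bases with Hmgxb3 on the opposite strand, and Cx3cr1 shares 78 with Gm33858. The strand setting of the counting is not given in the sources used here, so reads from those stretches cannot be told apart.

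Levels per kilobase of exon differed by more than 100 times among the markers. Cd14, the co-receptor that hands lipopolysaccharide to Tlr4, was highest in every group, with mean values of 21.5, 27.4, 56.5 and 40.1 CPM per kb in baseline WT, baseline DKO, DSS WT and DSS DKO. Lyz2, the lysozyme of macrophages and neutrophils, came next with 4.72, 4.73, 7.75 and 8.83 CPM per kb. Cd14 supplied 67.3% to 79.4% of the counts of the 10 genes in each library, so the summed level of the set is mostly a Cd14 level. Cd68 followed at baseline, at 2.79 and 2.30 CPM per kb, and C1qa after DSS, at 3.09 and 2.49 CPM per kb. At the low end stood Ccr2 (0.0428 CPM per kb in baseline WT) and Cx3cr1 (0.0439 CPM per kb in baseline DKO, then 0.204 and 0.157 after DSS in WT and DKO). The ranges of libraries overlapped between many neighbours. In baseline WT this held for every neighbouring pair from C1qa down. In baseline DKO it held for Lyz2 and Cd68, and along Csf1r, C1qb, Itgax, Adgre1 and Ccr2. In DSS WT it held for Cd68 and C1qb, and along Csf1r, Adgre1 and Ccr2. In DSS DKO it held along C1qa, C1qb and Cd68, along Csf1r, Itgax and Adgre1, and for Ccr2 and Cx3cr1. Those neighbours are not ordered beyond their spread.

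**Figure D1:**
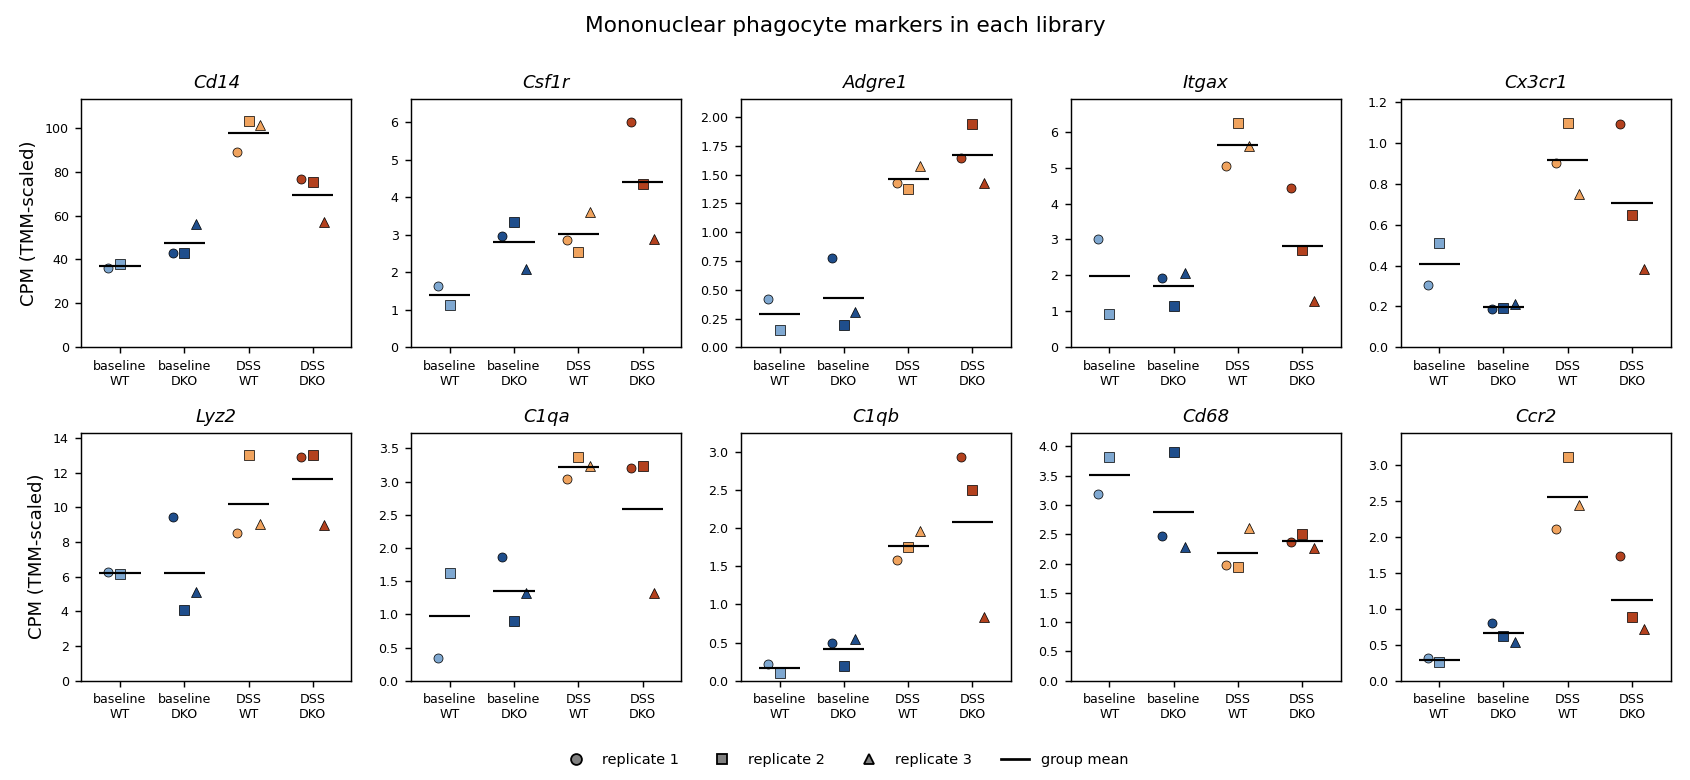
Level of each of the 10 marker genes, 1 panel per gene, in CPM scaled by TMM on the vertical axis and the 4 groups on the horizontal axis. Each point is a library, its shape gives the replicate number and the bar is the group mean; Cd14 ran from 36.2 to 103 CPM, while Ccr2 did not pass 3.11 CPM.

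After DSS most markers were higher than at baseline in WT. The quasi-likelihood test of edgeR, with p-values adjusted over all genes and a call at an adjusted p under 0.05, called 6 of 10 markers higher and 0 lower (Cd14, Csf1r, Adgre1, C1qa, C1qb and Ccr2), beside 16.9% of all tested genes called higher and 16.5% lower. In 9 markers all 3 DSS libraries lay above both baseline libraries, and in Cd68 all 3 lay below, beside 31.9% and 31.6% of all genes. In DKO the test called 5 of 10 higher and 0 lower (Cd14, Adgre1, Cx3cr1, Lyz2 and C1qb), beside 12.6% of all genes higher and 11% lower. There 4 markers were higher without overlap and 0 lower, beside 20.4% and 19.6% of all genes. The median log2 fold change of the 10 markers was 1.45 in WT and 0.84 in DKO, where the median over all genes was -0.01 and 0.01.

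Between genotypes the markers did not move together. After DSS, 2 of 10 were called lower in DKO than in WT (Cd14 and Ccr2) and 0 higher, beside 5.98% of all genes lower and 5.26% higher. Itgax, Cd14 and Ccr2 were lower in DKO without overlap, beside 17.9% of all genes. The median log2 fold change of the markers was -0.09, against 0.03 over all genes. At baseline the same test called 0 of 10, beside 0.0104% of genes higher and 0.0156% lower, and DESeq2 also called 0. There 3 markers (Cd14, Csf1r and Ccr2) were higher in DKO without overlap and 1 (Cx3cr1) lower, beside 9.92% and 10.3% of all genes. Csf1r and Ccr2 were at an unadjusted p under 0.05, beside 751 of the 19267 genes. The difference between the DSS responses of the genotypes (interaction) was called for 0 of 10 by edgeR, beside 0.773% of genes called higher and 0.794% lower. Ccr2 and Cd14 had an unadjusted p under 0.05, as did 3636 of the 19267 genes, a share near that of the markers. DESeq2 called both lower, among 1355 genes that it called. All comparisons were fitted on the same 11 libraries and neighbouring ones share a group, so they are not independent of each other.

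**Figure D2:**
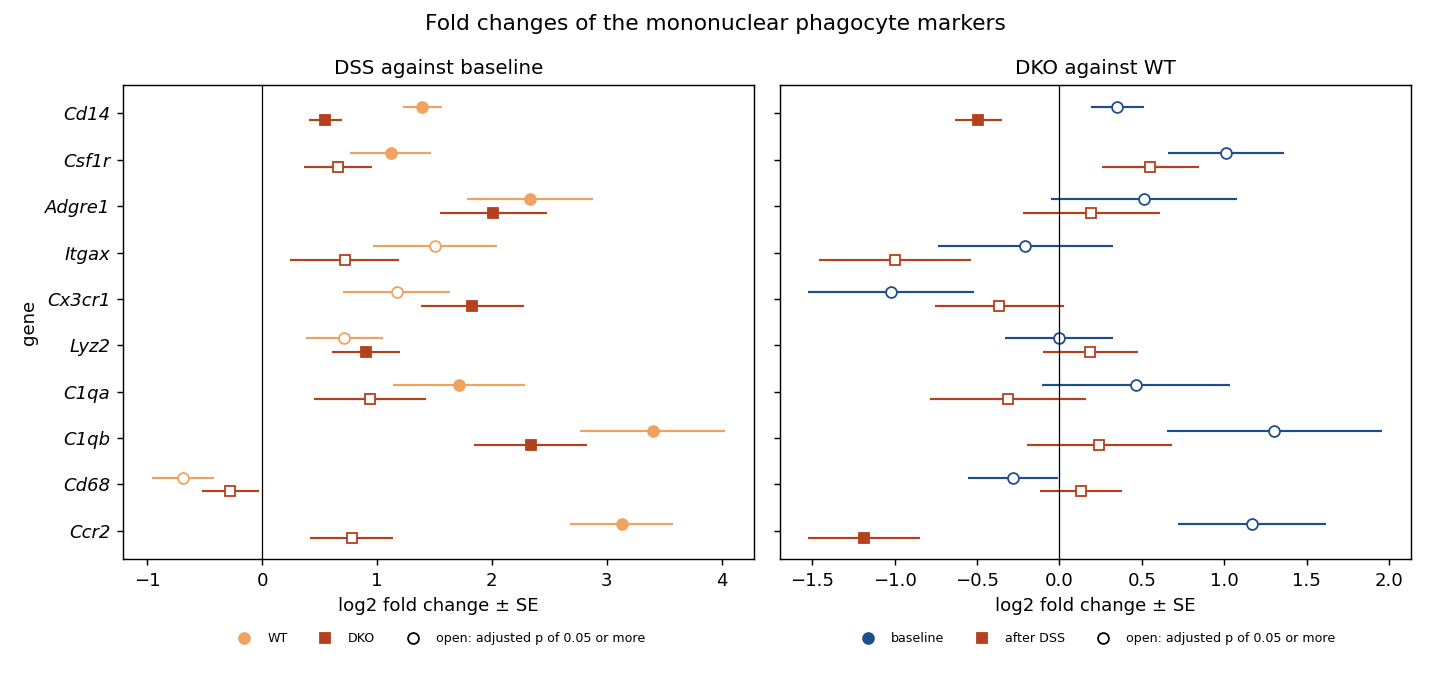
Log2 fold changes (horizontal axis) with standard errors as lines for each marker gene (vertical axis). The left panel gives DSS against baseline in WT (circles) and DKO (squares), where Ccr2 stood at 3.13 and 0.78; the right panel gives DKO against WT at baseline (circles) and after DSS (squares), where Ccr2 stood at 1.17 and -1.18, and filled symbols have an adjusted p under 0.05.

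Among the receptors, Ccr2, which draws monocytes out of the bone marrow and into tissue toward Ccl2, had the largest interaction estimate of the 10. It stood at 0.323 and 0.255 CPM in baseline WT and at 0.805, 0.630 and 0.544 CPM in baseline DKO. After DSS it was at 2.12, 3.11 and 2.44 CPM in WT and at 1.74, 0.891 and 0.726 CPM in DKO. The baseline WT libraries were the lowest of all and rested on 16 and 12 counts, and the DSS WT libraries were the highest of all. DSS DKO lay below DSS WT without overlap and overlapped baseline DKO through replicate 3. In WT, Ccr2 rose 8.76-fold with DSS (log2 3.13 ± 0.45 SE, adjusted p = 0.000657). In DKO the log2 difference was 0.78 ± 0.36 (adjusted p = 0.133), and the response differed between genotypes by -2.35 ± 0.56 (adjusted p = 0.0570). After DSS, Ccr2 was 2.27-fold lower in DKO than in WT (log2 -1.18 ± 0.34, adjusted p = 0.0438). That call rests on a narrow margin: leaving out any single library other than DSS DKO replicate 1 moved its adjusted p to between 0.0519 and 0.165, and it was 0.0876 with the DSS groups alone.

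Cd14 followed the same order at a far higher level. Baseline WT libraries stood at 36.2 and 38.1 CPM and baseline DKO libraries, all higher, at 43.1, 43.0 and 56.0 CPM. DSS brought WT to 88.8, 103 and 101 CPM and DKO to 76.5, 75.0 and 56.9 CPM. All DSS WT libraries were above all DSS DKO libraries, and DSS DKO replicate 3 came within 1 CPM of the highest baseline DKO library. Cd14 rose 2.63-fold in WT (log2 1.40 ± 0.17, adjusted p = 0.000304) and 1.47-fold in DKO (0.55 ± 0.14, adjusted p = 0.0164). The DKO rise was lost without baseline DKO replicate 1 (0.0681) or 2 (0.0724) or DSS DKO replicate 2 (0.0641), and with baseline DKO replicate 3 alone (0.401). In that last setting the arm is 1 library whose spread is taken from the other groups, and calls over all genes for DSS in DKO fell from 4545 to 957. After DSS, Cd14 was 1.41-fold lower in DKO (log2 -0.49 ± 0.14, adjusted p = 0.0453). This call was lost without any single library other than baseline DKO replicate 3 or DSS DKO replicate 1, at adjusted p of 0.0528 to 0.159, and with the DSS groups alone (0.0685). Adding replicate number to the fit (0.0589) or removing Rn18s-rs5 (0.0509) lost the call too. The interaction was -0.84 ± 0.22 (adjusted p = 0.0689).

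Cx3cr1, the fractalkine receptor of resident macrophages and patrolling monocytes, stood at 0.303 and 0.510 CPM in baseline WT and at 0.186, 0.194 and 0.214 CPM in baseline DKO. DSS libraries held 0.901, 1.10 and 0.752 CPM in WT and 1.09, 0.648 and 0.386 CPM in DKO. Counts behind these values were 6 to 59 per library. The baseline DKO libraries were all below the baseline WT libraries, whereas the DSS groups overlapped. Cx3cr1 rose 3.55-fold in DKO (log2 1.83 ± 0.45, adjusted p = 0.0125), a call that was lost with baseline DKO replicate 3 alone (0.188). In WT the difference was 1.17 ± 0.47 (adjusted p = 0.0724). Genotypes differed by -1.02 ± 0.50 at baseline (adjusted p = 1) and -0.36 ± 0.39 after DSS (adjusted p = 0.596).

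Csf1r, the receptor for Csf1 and Il34 on which most macrophages depend, was not called between genotypes. It stood at 1.64 and 1.13 CPM in baseline WT and at 2.97, 3.34 and 2.08 CPM in baseline DKO. The DSS libraries held 2.86, 2.55 and 3.62 CPM in WT and 5.995, 4.36 and 2.88 CPM in DKO. Baseline DKO lay wholly above baseline WT, and DSS DKO overlapped DSS WT through replicate 3. Csf1r rose 2.17-fold in WT (log2 1.12 ± 0.35, adjusted p = 0.0291), which was lost without baseline WT replicate 1 (0.0697) or 2 (0.171) or DSS WT replicate 3 (0.0883). In DKO the DSS difference was 0.66 ± 0.30 (adjusted p = 0.126). DKO stood above WT by 1.01 ± 0.35 at baseline (adjusted p = 1) and 0.55 ± 0.30 after DSS (adjusted p = 0.258). Hmgxb3, which shares exonic bases with it, was at 15.0 to 38.1 CPM, far above Csf1r, with log2 differences of -0.73 for DSS in WT (adjusted p = 0.103) and 0.37 for DKO after DSS (adjusted p = 0.455). The part of Hmgxb3 reads in the Csf1r values was not tested.

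Adgre1 encodes F4/80, the classical surface marker of mouse macrophages, which eosinophils also carry. It stood at 0.424 and 0.149 CPM in baseline WT, at 0.774, 0.194 and 0.311 CPM in baseline DKO, at 1.43, 1.38 and 1.58 CPM in DSS WT and at 1.65, 1.94 and 1.43 CPM in DSS DKO. Every DSS library lay above every baseline library, and the genotypes overlapped both times. Adgre1 rose 5.04-fold in WT (log2 2.33 ± 0.55, adjusted p = 0.00782) and 4.04-fold in DKO (2.01 ± 0.46, adjusted p = 0.00943). The WT value was 1.80 without baseline WT replicate 2, where the call was lost (adjusted p = 0.0671), and 3.28 without replicate 1. The DKO value was 2.71 without baseline DKO replicate 1 and stayed called. DKO and WT differed by 0.20 ± 0.42 after DSS (adjusted p = 0.808) and by 0.51 ± 0.57 at baseline (adjusted p = 1).

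Itgax, the integrin chain CD11c of dendritic cells and intestinal macrophages, stood at 3.01 and 0.936 CPM in baseline WT and at 1.92, 1.14 and 2.08 CPM in baseline DKO. DSS WT libraries held 5.06, 6.25 and 5.60 CPM, and DSS DKO libraries 4.42, 2.71 and 1.29 CPM. The DSS WT libraries were the highest, and DSS DKO replicates 2 and 3 lay inside the baseline range. The test called none of its comparisons. DSS changed Itgax by 1.51 ± 0.54 in WT (adjusted p = 0.0508) and 0.72 ± 0.47 in DKO (adjusted p = 0.290), and DKO was lower than WT after DSS by log2 -0.998 ± 0.46 (adjusted p = 0.191). The WT difference was past the threshold in 7 of 19 alternative settings, DESeq2 among them (adjusted p = 0.0128). It was 2.59 without baseline WT replicate 1 (adjusted p = 0.0268) and 0.92 without replicate 2 (adjusted p = 0.257). With no filter on low counts, Itgax was also called lower in DKO after DSS (adjusted p = 0.00707).

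C1qa and C1qb encode chains of C1q, the first component of the classical complement pathway, which tissue macrophages make. C1qb stood at 0.222 and 0.106 CPM in baseline WT, at 0.495, 0.194 and 0.544 CPM in baseline DKO, at 1.59, 1.75 and 1.96 CPM in DSS WT and at 2.92, 2.49 and 0.839 CPM in DSS DKO. Every DSS library was above every baseline library, and DSS DKO held both the highest and the lowest DSS library. C1qb rose 10.6-fold in WT (log2 3.40 ± 0.63, adjusted p = 0.00243) from baseline libraries of only 11 and 5 counts, and 5.05-fold in DKO (2.34 ± 0.49, adjusted p = 0.00594). Without baseline WT replicate 1 the WT value was 4.02 and stayed called. The DKO rise had an adjusted p of 0.143 with baseline DKO replicate 3 alone. Between genotypes after DSS the difference was 0.24 ± 0.44 (adjusted p = 0.769).

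C1qa stood at 0.344 and 1.62 CPM in baseline WT, a spread of nearly 5 times between the replicates, and at 1.86, 0.896 and 1.32 CPM in baseline DKO. In DSS WT it stood at 3.04, 3.37 and 3.23 CPM and in DSS DKO at 3.20, 3.24 and 1.32 CPM. DSS DKO replicate 3 again was far below the other DSS libraries, at the level of the baseline DKO group. C1qa rose 3.29-fold in WT (log2 1.72 ± 0.58, adjusted p = 0.0397). The WT value depended on the baseline replicates, since it was 0.99 (adjusted p = 0.230) without replicate 1 and 3.23 without replicate 2. The WT call was also lost without baseline DKO replicate 3, without DSS DKO replicate 2 or without any DSS WT library, at adjusted p of 0.0520 to 0.0864. In DKO the DSS difference was 0.94 ± 0.49 (adjusted p = 0.184), and DKO differed from WT after DSS by -0.31 ± 0.47 (adjusted p = 0.721).

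C1qc, the gene of the remaining C1q chain, stood at 0.424 and 0.383 CPM in baseline WT, at 0.372, 0.145 and 0.738 CPM in baseline DKO, at 0.921, 1.12 and 1.25 CPM in DSS WT and at 2.07, 1.42 and 0.862 CPM in DSS DKO. Like C1qb it was higher in every DSS library than in every baseline library, and its rise was called in DKO (log2 1.76 ± 0.49, adjusted p = 0.0220). The transcripts of C1qa, C1qb and C1qc share 0 windows of 50 bases, so reads of that length tell them apart. Spi1, which encodes PU.1, stood at 1.15 to 1.17 CPM in baseline WT and 1.67 to 2.70 CPM in the other 3 groups, and none of its comparisons was called.

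**Figure D3:**
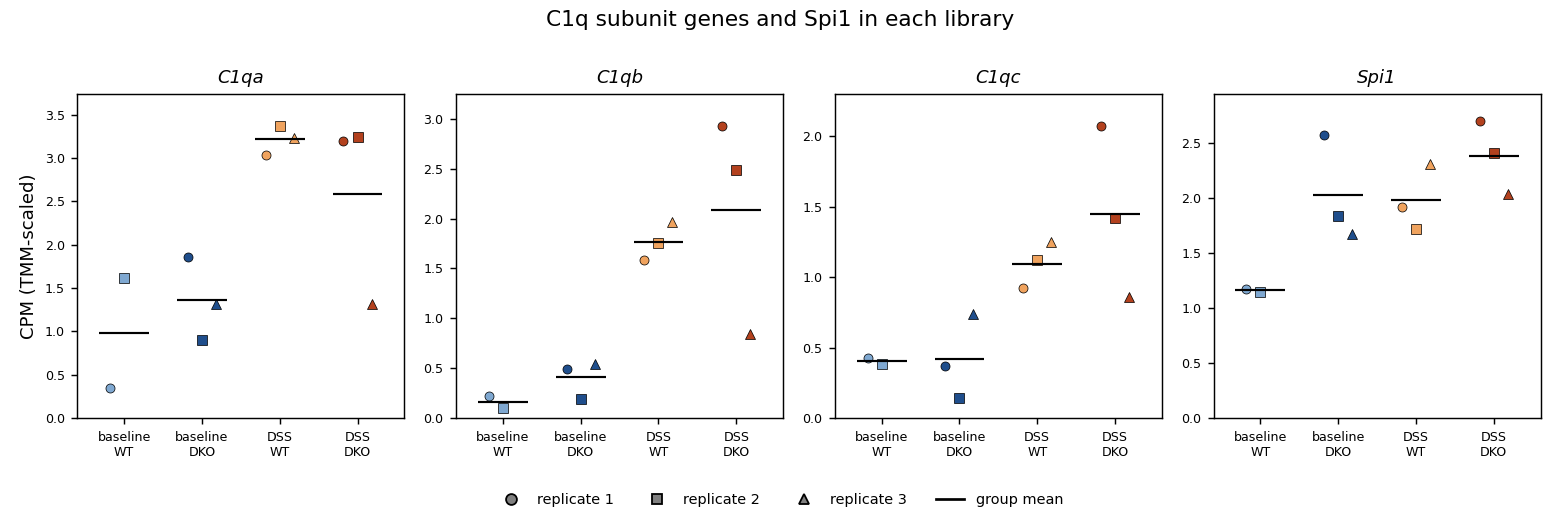
CPM scaled by TMM (vertical axis) of the 3 C1q chain genes and of Spi1 in the 4 groups (horizontal axis), with a point per library, its shape giving the replicate, and a bar at the group mean. DSS DKO replicate 3 lay below the other DSS libraries for C1qa (1.32 CPM), C1qb (0.839 CPM) and C1qc (0.862 CPM), and Spi1 spanned only 1.15 to 2.70 CPM.

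Lyz2 stood at 6.26 and 6.15 CPM in baseline WT and at 9.47, 4.07 and 5.15 CPM in baseline DKO. DSS WT libraries held 8.50, 13.1 and 9.05 CPM and DSS DKO libraries 12.9, 13 and 8.96 CPM. Baseline DKO replicate 1 overlapped the DSS DKO range. Lyz2 rose 1.87-fold in DKO (log2 0.91 ± 0.29, adjusted p = 0.0431), a call kept in 9 of 19 alternative settings with adjusted p of 0.0566 to 0.157 where it was lost. In WT the difference was 0.72 ± 0.33 (adjusted p = 0.114), and genotypes differed by 0.00 ± 0.33 at baseline (adjusted p = 1) and 0.19 ± 0.29 after DSS (adjusted p = 0.722). Lyz2 shares 15.4% of its 50-base windows with Lyz1, the lysozyme of Paneth cells, so part of its reads could be split between the copies. Lyz1 ran from 0 to 235 counts, with 235, 10 and 0 in DSS DKO, while Lyz2 held 698, 642 and 395 counts there.

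Cd68 alone among the 10 was lower after DSS in direction. It stood at 3.19 and 3.83 CPM in baseline WT, at 2.48, 3.90 and 2.29 CPM in baseline DKO, at 1.98, 1.94 and 2.61 CPM in DSS WT and at 2.37, 2.51 and 2.27 CPM in DSS DKO. The DSS WT libraries lay below both baseline WT libraries, while the DKO groups overlapped. The difference was -0.69 ± 0.27 in WT (adjusted p = 0.0685) and -0.28 ± 0.25 in DKO (adjusted p = 0.435), and neither was called. The WT difference was called in 3 of 19 alternative settings: DESeq2 (adjusted p = 0.0379), a filter at a mean CPM of at least 1 (0.0370) and leaving out baseline DKO replicate 2 (0.0447). DKO and WT differed by -0.28 ± 0.27 at baseline (adjusted p = 1) and 0.13 ± 0.25 after DSS (adjusted p = 0.777).

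Libraries within DSS DKO were unequal. Without Cd14, the other 9 markers summed to 36.3, 31.8 and 20.1 CPM in DSS DKO, to 27.5, 34.5 and 30.8 CPM in DSS WT, and to 14.5 to 21.0 CPM in the baseline groups. Replicate 3 was the lowest DSS DKO library for every marker and replicate 1 the highest for 6 of the 10. The pan-leukocyte gene Ptprc (CD45) was also unequal, at 30.5, 17.2 and 14.4 CPM in DSS DKO against 41.8, 54.1 and 39.9 CPM in DSS WT, and was lower in DKO (log2 -1.13 ± 0.25, adjusted p = 0.0155). Counts of Ccr2 per count of Ptprc were 0.0507, 0.0576 and 0.0612 in DSS WT and 0.0571, 0.0520 and 0.0504 in DSS DKO, which overlapped. Counts of Itgax per count of Ptprc were 0.121, 0.115 and 0.140 in DSS WT and 0.145, 0.158 and 0.0898 in DSS DKO, which overlapped too. For Cd14 the same ratio was 2.13, 1.91 and 2.54 in DSS WT and 2.51, 4.37 and 3.95 in DSS DKO, again overlapping. Csf1r per count of Ptprc was 0.0685, 0.0472 and 0.0907 in DSS WT and 0.197, 0.254 and 0.200 in DSS DKO, higher in DKO without overlap. The exact permutation test gave p = 0.1 (adjusted p = 0.28 over 28 ratio comparisons). This ratio was also higher in DKO without overlap at baseline, at 0.0987 and 0.0840 in WT and 0.1875, 0.2695 and 0.152 in DKO. Csf1r overlaps Hmgxb3, and the part of Hmgxb3 reads in the ratio was not tested. The part of total leukocyte content in the marker values was not tested further.

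Other genes of the phagocyte lineages were counted from lists. Of 17 other macrophage markers tested, 1 was higher in DKO after DSS and 0 lower, 2 rose and 1 fell with DSS in WT, and 7 rose and 1 fell in DKO. The called gene was Msr1, a scavenger receptor, at 0.490, 0.541 and 0.789 CPM in DSS WT and 2.68, 2.57 and 0.862 CPM in DSS DKO (log2 1.75 ± 0.47, adjusted p = 0.0350). Msr1 was higher in the comparison in which Ccr2 and Cd14 were lower. The count of 1 in 17 was near the share of all genes called higher there. The Msr1 call was lost when replicate number was added to the fit. Of 10 monocyte markers, 2 were higher in DKO after DSS, and 5 rose with DSS in each genotype. The 2 were Hp, haptoglobin, at 2.59, 3.37 and 3.27 CPM in DSS WT and 8.53, 14.3 and 16.4 CPM in DSS DKO (log2 2.08 ± 0.29, adjusted p = 0.00153), and Chil3, a chitinase-like secreted protein (log2 2.03 ± 0.43, adjusted p = 0.0137). Both genes are also made by neutrophils.

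The dendritic cell markers that were called between genotypes were lower in DKO. Of 15 listed, 10 were tested, and 2 were lower in DKO after DSS and 0 higher, while 4 rose with DSS in WT and 1 in DKO. Over all genes, 5.98% were lower and 5.26% higher in DKO after DSS, and 16.9% rose in WT and 12.6% in DKO. The median log2 difference of the 10 after DSS was -0.36. Zbtb46 went the other way, with means of 0.340 CPM in DSS WT and 0.523 CPM in DSS DKO. Fscn1, an actin-bundling protein of mature dendritic cells, was at 11.5, 10.1 and 6.28 CPM in DSS WT and 3.33, 2.61 and 3.74 CPM in DSS DKO (log2 -1.52 ± 0.34, adjusted p = 0.0156). Irf4, a transcription factor of dendritic cells and lymphocytes, stood at 1.84, 4.46 and 1.74 CPM in DSS WT and 1.09, 0.446 and 0.408 CPM in DSS DKO (log2 -2.03 ± 0.53, adjusted p = 0.0298). Neither gene is limited to dendritic cells. The defining markers Xcr1, Clec9a, Batf3, Cd209a and Siglech stayed at or below 0.274 CPM in every library. Flt3 stayed at or below 0.568 CPM, so these genes rested on few reads. Irf8 and Ly75, also on the list, were at 110.5 to 195.4 CPM and 28.6 to 62.7 CPM over all libraries.

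Genes that act with the markers changed in several directions. The ligand of Cx3cr1, Cx3cl1, stood at 72.5 and 72.5 CPM in baseline WT, 65.5, 82.4 and 59.3 CPM in baseline DKO, 38.7, 21.9 and 22.4 CPM in DSS WT and 50.7, 40.9 and 26.7 CPM in DSS DKO. It fell in WT (log2 -1.39 ± 0.29, adjusted p = 0.00520) and in DKO (-0.81 ± 0.26, adjusted p = 0.0477). Ccl2, the main ligand of Ccr2, rose in DKO (adjusted p = 0.0102), from 0 counts in each baseline library to 12, 17 and 18 after DSS. In WT it had 5 and 6 counts at baseline and 6, 0 and 8 after DSS (adjusted p = 0.808). The other 3 listed ligands did not pass the filter. Among 10 genes of Cd14 and Tlr4 signalling, none was called between genotypes, and Tlr4 itself rose with DSS in WT (log2 0.60 ± 0.14, adjusted p = 0.00654) and DKO (0.62 ± 0.12, adjusted p = 0.00415).

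Of 7 growth factor and receptor genes tested, none was called between genotypes, 2 rose and 3 fell with DSS in WT, and 3 rose and 1 fell in DKO. Csf1, the main ligand of Csf1r, fell in DKO (log2 -0.92 ± 0.29, adjusted p = 0.0383), and Csf2rb, a receptor chain for granulocyte-macrophage colony-stimulating factor, rose there (1.35 ± 0.38, adjusted p = 0.0239). With DSS in WT, mean Csf1 went from 1.91 to 1.28 CPM and mean Csf2rb from 0.64 to 2.21 CPM. Of 9 classical complement genes, 3 rose with DSS in WT, and 6 rose and 1 fell in DKO, with none called between genotypes. C5ar1, the C5a receptor, rose by 3.68 ± 0.59 in DKO (adjusted p = 0.00149), and C1s1, a protease of the C1 complex, by 2.16 ± 0.55 (adjusted p = 0.0170). In WT the mean of C5ar1 went from 0.144 to 0.782 CPM with DSS and that of C1s1 from 0.306 to 1.47 CPM. With baseline DKO replicate 3 alone, no gene of the complement, growth factor, chemokine ligand or Tlr4 lists was called for DSS in DKO, so the calls given for Csf1, Csf2rb, C5ar1, C1s1, C1qc, Cx3cl1, Ccl2 and Tlr4 in DKO were lost. In that setting 3 other macrophage markers and 1 monocyte marker were higher and 0 lower, and 1 gene of the adaptor list was higher and 1 lower.

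The adaptor and transcription factor list was divided. Of 10 genes, 1 rose and 2 fell in WT with DSS, 1 rose and 4 fell in DKO, and none was called between genotypes. Tyrobp, the adaptor DAP12 of myeloid and NK receptors, rose in DKO (log2 1.81 ± 0.29, adjusted p = 0.00152). Its mean went from 0.564 to 2.20 CPM in WT and from 0.630 to 2.20 CPM in DKO. Among the genes that fell in DKO were the C/EBP factors Cebpb and Cebpa, by 2.17 and 1.17 on the log2 scale. In WT their means went from 1.01 to 0.506 CPM and from 28.9 to 15.9 CPM. Of 12 lysosome genes, 1 was higher and 1 lower in DKO after DSS, beside 5.26% and 5.98% of all genes. The higher gene was Npc1, a cholesterol transporter (log2 0.88 ± 0.23, adjusted p = 0.0343). It was at 37.6, 43.6 and 39.8 CPM in DSS WT and 48.2, 65.9 and 108.8 CPM in DSS DKO. DSS DKO replicate 1 lay within the baseline range of 46.0 to 59.1 CPM, and replicate 3 was the highest.

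Markers of other leukocytes moved beside these results. Over all genes, 5.98% were called lower and 5.26% higher in DKO after DSS. With DSS, 16.9% of all genes rose in WT and 12.6% in DKO. Of 10 pan-leukocyte markers, 3 were lower in DKO after DSS and 0 higher, 8 rose with DSS in WT and 3 in DKO. Their summed level was 147 to 183 CPM in DSS WT and 74.5 to 120 CPM in DSS DKO, against 74.4 to 90.8 CPM at baseline. Of 14 T and NK cell markers, 10 were lower in DKO after DSS and 0 higher, with sums of 135 to 148 CPM in DSS WT and 36.6 to 71.5 CPM in DSS DKO. Of 14 neutrophil markers, 5 were higher in DKO and 0 lower, with sums of 75.8 to 86.4 CPM in DSS WT and 187 to 271 CPM in DSS DKO. Ly6g made up most of the DSS DKO sums, at 113, 144 and 135 CPM, against 39.0, 26.8 and 25.4 CPM in DSS WT. Elane, Mpo and Csf3r had lower means in DSS DKO than in DSS WT. Mast cell markers were lower for 2 of 8, and their sums were 94.8 to 236 CPM in DSS WT and 82.3 to 118 CPM in DSS DKO. Kit made up most of the DSS DKO sums. It was at 59.1, 64.8 and 61.0 CPM in DSS WT and 61.65, 101 and 95.1 CPM in DSS DKO. Mcpt1 was at 20.4, 103 and 56.8 CPM in DSS WT and 9.75, 9.155 and 3.56 CPM in DSS DKO. Mcpt2 had means of 32.6 and 3.86 CPM there. The 10 mononuclear phagocyte markers summed to 116 to 138 CPM in DSS WT and 77.0 to 113 CPM in DSS DKO. These sums are mostly Cd14, and without Cd14 they overlapped between the genotypes. Of 12 fibroblast and endothelial markers, 3 were higher in DKO after DSS. None of 8 epithelial markers and none of 7 B and plasma cell markers tested was called between genotypes. What part these cell types have in the marker values was not tested.

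**Figure D4:**
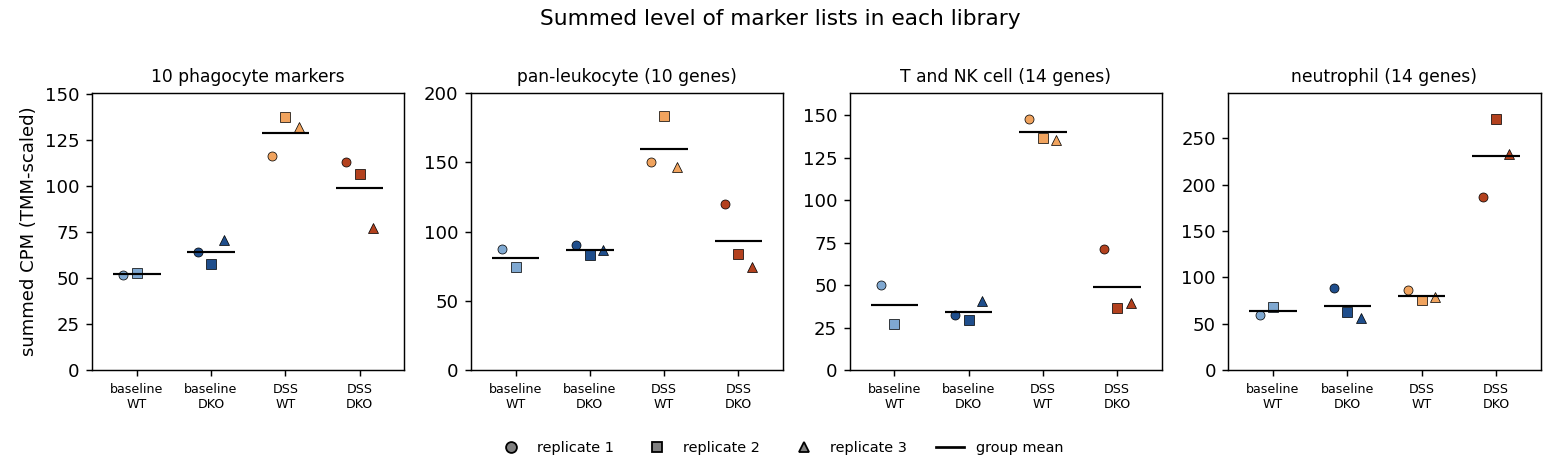
Summed CPM (vertical axis) of marker lists in each library of the 4 groups (horizontal axis), with a bar at the group mean. After DSS the T and NK cell list was lower in DKO (36.6 to 71.5 CPM) than in WT (135 to 148 CPM). The neutrophil list was higher (187 to 271 against 75.8 to 86.4 CPM), and Ly6g made up most of it in DSS DKO. The mononuclear phagocyte list lay at 77.0 to 113 against 116 to 138 CPM and was mostly Cd14. Without Cd14 it overlapped between the genotypes after DSS (20.1 to 36.3 CPM in DKO and 27.5 to 34.5 CPM in WT).

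Genes with the profile nearest to each marker were sought among 13076 genes by the root-mean-square difference of centred log2 CPM over the 11 libraries. For Csf1r the nearest were Tspan4 (0.289), Ptk6 (0.304) and Spi1 (0.308), and for Ccr2 they included AI504432 (0.344) and Gng2 (0.432). For Itgax they were Traf3ip3 (0.251), Gvin-ps5 (0.296) and Slamf7 (0.298), and for Cx3cr1 Cd244a (0.309), Sla (0.344) and Zfp69 (0.354). Cd14 was nearest to Mcrip2 (0.126), Cycs (0.126) and Pole4 (0.128), none of which is known as a phagocyte marker. Cd68 was nearest to Cfp (0.119), which encodes properdin, and Lyz2 to Eml6 (0.205), Zfp37 (0.240) and Ncf4 (0.243). Adgre1 was nearest to Prrg4 (0.338), Entpd1 (0.352) and Zbed6 (0.354). For C1qa and C1qb the smallest differences were 0.438 (Gm10060) and 0.531 (Slc15a3), larger than for the other 8 markers.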

How the data were processed

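RNA of 11 libraries was sequenced, and the authors deposited raw read counts per gene. Per the submitters' processing notes, STAR and mm10 were used; which versions, annotation and strandedness applied is not given in the sources used here. Every column of counts was matched to a labelled sample (0 unmapped). The markers and gene lists were chosen with earlier results of these data known. Counts were scaled by TMM and fitted with 1 mean per group in edgeR 4.0.16 (limma 3.58.1, R 4.3.3) after a filter at a minimum count of 10; two-sided quasi-likelihood tests were adjusted by Benjamini-Hochberg over 19267 genes, with calls at 0.05. All 10 markers are given in full. Values of some other genes that the naming rule selects are not reported here. From each other list, called genes with the lowest adjusted p for DKO against WT after DSS are named, or, where none was called there, for DSS against baseline in DKO; other genes (Spi1, Cx3cl1, Ccl2, Csf1, Hmgxb3, Lyz1 and list members near 0) were added as ligands, regulators or overlapping genes. Each marker's 3 nearest profiles come from genes whose log2 CPM averaged 0 or more. Alternatives were DESeq2 1.42.0 and its size factors, other filters, removal of Rn18s-rs5, a replicate block, the compared groups alone and leaving out each library. Within-library ratios were compared by exact permutation. The test was checked on simulated data. Promoter windows came from RefSeq (GRCm38.p6). Depth limits the lowest markers, which had 5 to 167 counts (Ccr2, C1qb, Cx3cr1, Adgre1). Replicates differed by more than sampling noise (chi-square per degree of freedom of 15.9 to 897).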

Additional observations from a re-analysis of the deposited data

How the results depend on the processing

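The count of markers lower in DKO after DSS, 2 in the reported fit, was 3 with no filter on low counts (Itgax added), 2 with DESeq2, its size factors or a mean CPM of at least 1, 1 without Rn18s-rs5, 1 with the replicate block (Cd14 lost, adjusted p = 0.0589), 0 with only the compared groups and 0 with baseline DKO replicate 3 alone, an alternative chosen after seeing the data in which the lone library is assumed to vary like the other groups; leaving out single libraries gave 0 to 2. The 5 markers higher with DSS in DKO became 3 with a mean CPM of at least 1, a filter that removes Cx3cr1, 3 with only the compared groups and 1 with baseline DKO replicate 3 alone, where calls over all genes fell from 4545 to 957, and 3 to 6 on leaving out libraries. In WT the count of 6 ran from 4 to 8. The interaction count of 0 was 2 with no filter, 1 with the replicate block, 2 with DESeq2, and 0 to 2 on leaving out libraries. Baseline calls stayed at 0 in all settings run. Over all genes, the 2165 calls after DSS were 3232 with no filter, 1372 with only the compared groups and as few as 691 without DSS DKO replicate 2, and the 302 interaction calls were 1469 with no filter and 1355 with DESeq2. Same-numbered libraries deviated together in 4 of 15 pairs (correlation of deviations above 0.1, range -0.071 to 0.302). Between the DSS groups the correlations were 0.302, 0.019 and 0.201, and 5 of 6 libraries correlated best with their own number. Whether equal numbers mark paired DSS libraries is not given in the labels. With the block the Msr1 call after DSS was lost (0 of 17 other macrophage markers called).

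No called value changed sign. Signs turned only in uncalled log2 differences. On leaving out libraries, ranges were -0.17 to 1.45 for Adgre1 at baseline, -1.26 to 0.37 for its interaction, -0.50 to 0.005 for C1qa after DSS, -0.26 to 1.98 for C1qa at baseline, -0.078 to 0.62 for C1qb after DSS, -0.42 to 0.001 for Cd68 with DSS in DKO, -0.80 to 0.87 for Itgax at baseline and -0.04 to 0.62 for the Lyz2 interaction. With baseline DKO replicate 3 alone, the Adgre1 interaction was 0.089, Cd68 with DSS in DKO 0.05 and Itgax at baseline 0.071, and with the replicate block Itgax at baseline was 0.019. The causes were not tested.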

Other observations

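The ratio of Csf1r to Ccr2 was chosen after its values were seen, from 28 ratio comparisons computed, and the number of libraries allows no test of it to pass. Counts of Csf1r per count of Ccr2 were 5.06 and 4.42 in baseline WT, 3.69, 5.31 and 3.82 in baseline DKO, 1.35, 0.820 and 1.48 in DSS WT and 3.45, 4.89 and 3.97 in DSS DKO. The values did not overlap after DSS, and the geometric mean in DKO was 3.44-fold that in WT (exact two-sided permutation test, p = 0.1, the smallest possible with 3 against 3, Benjamini-Hochberg adjusted p = 0.28). In WT the geometric mean after DSS was 4.01-fold below that at baseline, with the same p values, and in DKO the ratio was 0.963-fold that at baseline (p = 0.7, adjusted p = 0.896, exact permutation test). Csf1r overlaps Hmgxb3, and the part of its reads in the ratio was not tested.

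Counts of Ccr2 per count of Ptprc stood at 0.0195 and 0.0190 in baseline WT and at 0.0508, 0.0508 and 0.0398 in baseline DKO, close to the 0.0504 to 0.0612 of all DSS libraries. Counts of C1qa per count of C1qb were 1.55 and 15.2 in the baseline WT replicates, from 11 and 5 counts of C1qb, and 1.10 to 1.93 in the DSS libraries.

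Among 7 eosinophil markers tested, 1 was higher in DKO after DSS, beside 5.26% of all genes. Il5ra, the receptor chain for interleukin 5, stood at 0.118, 0.559 and 0.532 CPM in DSS WT and 12.6, 11.9 and 6.26 CPM in DSS DKO (log2 4.65 ± 0.50, adjusted p = 0.000602 by edgeR). The eosinophil granule gene Epx was at 0.451, 0.149 and 0.385 CPM in DSS WT and 0.537, 0.932 and 0.680 CPM in DSS DKO, higher in DKO without overlap (log2 1.12 ± 0.42, adjusted p = 0.111). Siglecf was at 0.999, 0.858 and 0.991 CPM in DSS WT and 0.740, 0.689 and 0.862 CPM in DSS DKO. Means in DSS WT and DSS DKO were 1.23 and 1.17 CPM for Prg2 and 0.151 and 0.137 CPM for Ear1. They were 0.182 and 0.192 CPM for Ear2 and 0.173 and 0.283 CPM for Ear6. The median log2 difference of the 7 tested genes was 0.07. Adgre1, which eosinophils also carry, overlapped between the genotypes.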
